A study of Mus musculus with 8 samples.

Results

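The interferon-stimulated genes and guanylate-binding GTPases described here are 56 genes, found by symbol in a table of read counts for 43346 mouse genes. All 56 were found, Ifit3b under its older symbol I830012O16Rik. They were divided into 12 type I-type genes (the Ifit, Oas, Oasl and Mx genes and Isg15), 12 interferon gamma-type GTPases (the Gbp, Irgm and Tgtp genes, Igtp and Iigp1) and 32 other members. RNA came from the MC3T3 cell line, pre-osteoblasts of mouse calvaria, cultured for 7 days with ascorbic acid (100 ug/mL) and beta-glycerophosphate (10 mM), additions that let such cells lay down mineral. In the 4 samples titled LLC-CM, written LLC_CM here, the medium contained 25% conditioned medium of LLC1, a line derived from Lewis lung carcinoma of the mouse. That medium had been collected after 48 hours in serum-free culture and filtered. The 4 samples titled NCM are taken as the vehicle controls because no other group is left for them; the abbreviation is not explained in the labels. The labels name no genotype, strain, passage or subclone, do not say what the vehicle was, and do not state if replicates came from different cultures. All p-values therefore refer to the spread among these libraries, which could be technical only. Both groups are a single cell line, and the medium comes from a single tumour line.

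Interferons are cytokines that cells release on viral infection and that instruct neighbouring cells to make antiviral proteins. Type I interferons bind the IFNAR1 and IFNAR2 receptor and, through JAK1 and TYK2, activate a complex with STAT2 and IRF9 that binds a DNA element called the ISRE. Interferon gamma binds IFNGR1 and IFNGR2 and, through JAK1 and JAK2, activates binding to another element called the GAS. Many genes answer both, but IFIT, OAS and Mx genes are typical of the type I response and the GBP and IRG GTPases, which attack the vacuoles of intracellular pathogens, of the interferon gamma response. In bone, type I interferon signalling is known to restrain osteoclasts.

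Interferon-stimulated genes of both types were higher in the osteoblasts given tumour-conditioned medium. Of the 50 members abundant enough to test, 45 rose in LLC_CM, 1 (Xaf1) fell and 4 (Ifit2, Znfx1, Samd9l and Pml) did not pass an adjusted p of 0.05. Over all 14991 genes tested, 18.8% were called higher and 18.1% lower by the same test, edgeR's quasi-likelihood F test with Benjamini-Hochberg adjustment over all of them. At least 2-fold increases were called for 30 members, against 4.99% of all genes tested. All 4 LLC_CM values lay above all 4 NCM values for 45 members, against 18.1% of all genes, and below them for 1, against 18.2%. The median log2 fold change was 1.56 over the tested members and 0.01 over all tested genes. The members were chosen with earlier results of these data known, so these comparisons describe the list and do not test it. In bulk RNA, a change in the number of expressing cells and a change in RNA per cell cannot be told apart.

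A gene was tested if at least 4 libraries reached 0.33 CPM (counts scaled to the library total), so a gene nearly silent in NCM entered only if it was raised in LLC_CM. This was the case for 13 of the 50 tested members, whose call says little beyond their entry. They were Ifit1, Ifit3b, Mx2, Oasl1, Oasl2, Oas1a, Oas3, Gbp3, Iigp1, Tgtp1, Tgtp2, Usp18 and Zbp1. The adjusted p-values given for them below carry the same limit. A split by the mean over all 8 libraries weighs both groups alike, but it does not remove this limit. Iigp1 passed such a split at 1 CPM with a mean of 0.0593 CPM in NCM and 1.03 CPM over all 8. With a mean of at least 1 CPM, 37 of 42 members were higher and 1 lower, against 19.4% higher and 19.4% lower among the 13222 tested genes at that level. Of the 37 members that passed on the NCM libraries alone, 32 were higher, 1 was lower and 4 did not pass. The share among all genes that pass in this way was not computed, so this count has no background beside it.

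**Figure D1:**
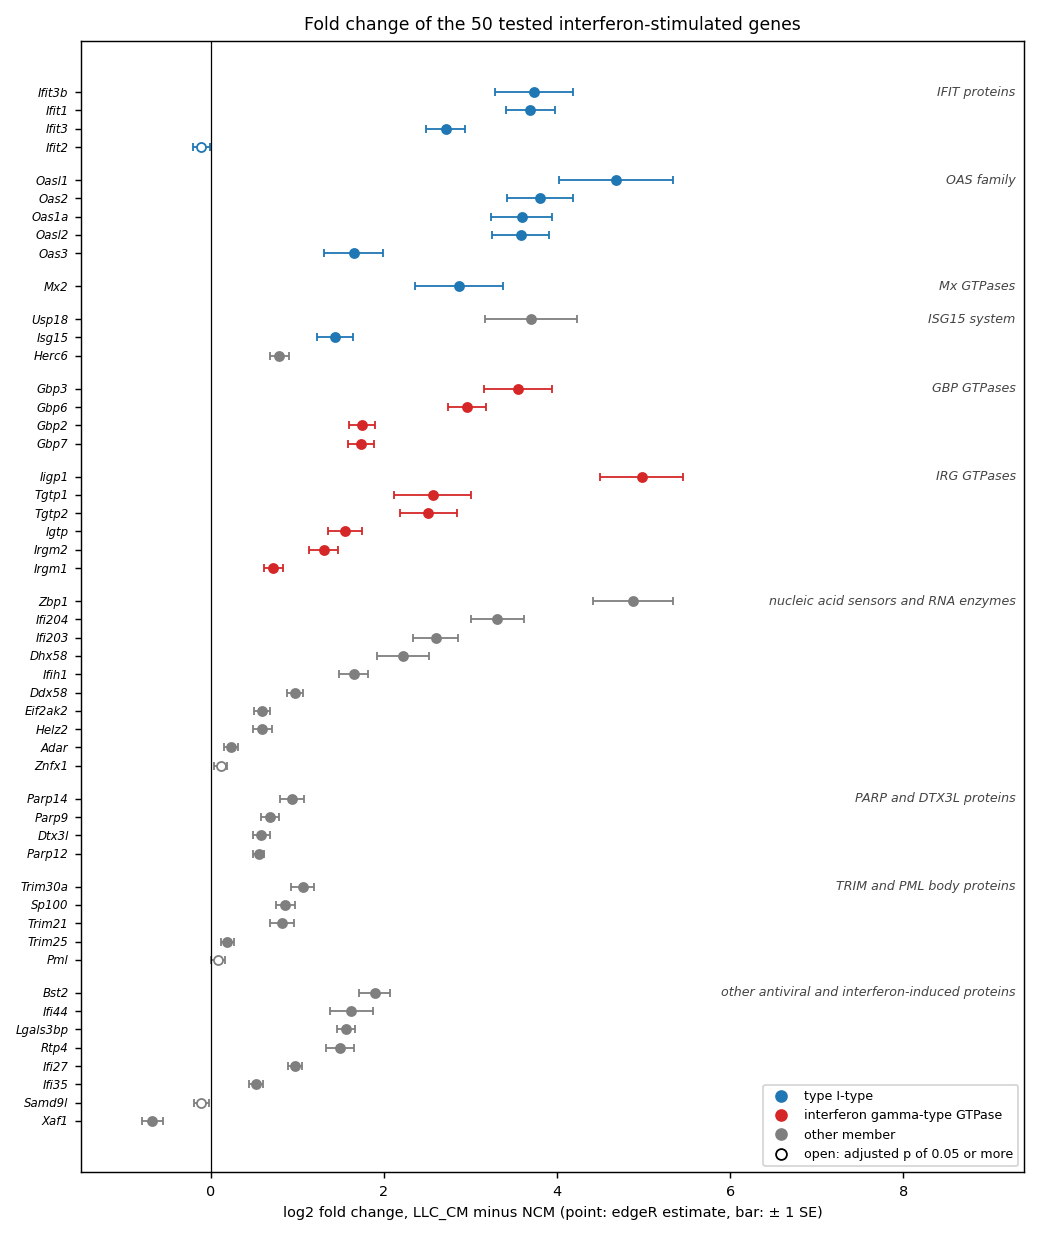
Log2 fold change, LLC_CM minus NCM, of the 50 tested members, grouped by role, with points for the edgeR estimate and bars for 1 standard error. Filled points passed an adjusted p of 0.05: 45 lie to the right of 0 and Xaf1 alone to the left, and the 4 open points are Ifit2, Znfx1, Samd9l and Pml. The estimate for Oasl1 rests on 2 counts in NCM.

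Library totals ran from 27264212 to 35573953 counts, and 3 counts, the upper limit that a count of 0 allows for counting error, corresponded to 0.0843 to 0.110 CPM. Of 7 osteoblast markers, 7 were lower in LLC_CM; 6 stayed at 12.5 CPM or more in all libraries, and Bglap, which encodes osteocalcin, read 1.18 to 1.80 CPM in LLC_CM and 97.3 to 175 CPM in NCM. Of 10 macrophage markers, 3 were higher (Lyz2, Cd14 and Fcer1g), and the summed level of the list was 23.0 to 36.5 CPM in LLC_CM and 15.1 to 20.2 CPM in NCM. Their part in the results was not tested. The macrophage markers Csf1r (0.862 CPM in LLC_CM and 1.21 CPM in NCM) and Cd68 (1.37 and 1.26 CPM) were tested and did not pass. Tyrobp and Itgam had 0 counts in all 8 libraries, Ptprc and Adgre1 had 0 counts in LLC_CM and 4 and 3 in NCM, and Cybb had 2 and 1. Of 5 endothelial markers, 1 could be tested, Vwf, and it was lower in LLC_CM (log2 fold change -0.73 ± 0.18, adjusted p = 0.0046). None of 9 lymphocyte and NK markers and none of 4 dendritic and plasmacytoid markers was abundant enough to test, with 13 and 11 summed counts in LLC_CM and 12 and 0 in NCM. The 7 epithelial markers, looked for as a sign of carcinoma cells, had 14 summed counts in LLC_CM and 14 in NCM, from Cdh1 (9 and 13) and Krt19 (5 and 1), and the other 5 had 0 counts in all libraries.

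The IFIT genes encode antiviral proteins, some of which bind viral RNA through its 5' end, and 3 of the 4 rose. The group is shown with its promoters because 1 of 4 neighbouring genes on chromosome 19 behaved differently from the rest. Ifit1 (chromosome 19, 34640871 to 34650009, mm10) stood at 4.92, 4.36, 3.08 and 3.73 CPM in LLC_CM replicates 1 to 4 and at 0.511, 0.319, 0.176 and 0.221 CPM in NCM. The groups did not overlap, and Ifit1 was 12.9-fold higher, at 4.02 ± 0.797 against 0.307 ± 0.149 CPM (SD, n = 4; log2 fold change 3.69 ± 0.28 SE, adjusted p = 7.1e-08). Ifit3 (34583531 to 34588731) read 3.67, 3.07, 2.74 and 2.66 CPM in LLC_CM and 0.409, 0.531, 0.353 and 0.536 CPM in NCM, again without overlap, a 6.56-fold rise (2.71 ± 0.23, adjusted p = 1.8e-07). Ifit3b (34607970 to 34613401), which was 97.82% identical to Ifit3 over 1700 aligned transcript bases, had 106 summed counts in LLC_CM and 7 in NCM (3.73 ± 0.45, adjusted p = 8.9e-06). Reads of this pair may have been shared between them.

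Ifit2 (34550694 to 34576419), the neighbour upstream, showed no such difference. It read 12.6, 12.4, 12.8 and 12.8 CPM in LLC_CM and 14, 15.5, 11.6 and 13.5 CPM in NCM, so that the LLC_CM values lay inside the NCM range (log2 fold change -0.11 ± 0.10, adjusted p = 0.42). Ifit2 was also the most abundant of the 4 in NCM per length, at 3.48 RPKM (CPM per kilobase of transcript) against 0.262 for Ifit3, 0.116 for Ifit1 and 0.0295 for Ifit3b. Within libraries, the log2 ratio of Ifit1 to Ifit2 CPM was -5.14 ± 0.41 in NCM and -1.65 ± 0.30 in LLC_CM (SD, n = 4, with 0.1 CPM added to both genes). The ratio of Ifit3 to Ifit2 was -4.63 ± 0.16 and -2.04 ± 0.22. These pairs were chosen after their values had been seen, so the ratios are given without a test.

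Promoters were taken from RefSeq (GRCm38.p6), from 250 bases before to 50 after the annotated start, and searched on both strands for an ISRE-type motif, which is GAAA, any 2 bases, GAAA, and for a GAS-type motif, TTCNNNGAA. The stretches below run 5' to 3' on the strand of the gene, with matches in capitals, and on this strand an ISRE-type match to the other strand reads TTTC, any 2 bases, TTTC. Those of Ifit1 (chr19:34640639-34640938) and Ifit3 (chr19:34583279-34583578) held 2 ISRE-type matches each, and that of Ifit2 (chr19:34550444-34550743) held none and 1 GAS-type match. A further RefSeq start of Ifit2, within the gene, held neither.
Ifit1: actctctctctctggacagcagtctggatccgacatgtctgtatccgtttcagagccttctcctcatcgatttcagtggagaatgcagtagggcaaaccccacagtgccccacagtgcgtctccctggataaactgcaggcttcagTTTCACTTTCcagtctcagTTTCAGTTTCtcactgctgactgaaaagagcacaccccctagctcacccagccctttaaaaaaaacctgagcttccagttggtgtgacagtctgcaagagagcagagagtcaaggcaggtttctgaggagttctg
Ifit3: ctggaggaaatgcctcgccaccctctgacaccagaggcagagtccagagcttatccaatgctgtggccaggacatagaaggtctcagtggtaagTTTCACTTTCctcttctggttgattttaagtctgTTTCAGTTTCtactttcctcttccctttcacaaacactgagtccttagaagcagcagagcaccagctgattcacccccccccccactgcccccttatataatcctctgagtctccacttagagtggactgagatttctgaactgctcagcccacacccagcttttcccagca
Ifit2: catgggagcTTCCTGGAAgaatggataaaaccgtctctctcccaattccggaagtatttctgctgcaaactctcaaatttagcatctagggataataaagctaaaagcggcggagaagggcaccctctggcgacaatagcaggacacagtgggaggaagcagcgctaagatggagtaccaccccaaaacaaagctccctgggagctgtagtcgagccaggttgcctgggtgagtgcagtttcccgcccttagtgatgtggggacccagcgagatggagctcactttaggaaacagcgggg
The Ifit1 matches lie at -104 to -95 and -85 to -76 from the start, those of Ifit3 at -156 to -147 and -122 to -113. A match is a run of letters, not evidence that a factor binds, and a missing match says only that these letters are not in this window.

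The ISG15 system, a ubiquitin-like protein with the enzymes that attach and remove it, rose in 3 of 3 members. Isg15 (chromosome 4, 156199424 to 156200818), the modifier itself, read 8.88, 5.51, 4.70 and 7.83 CPM in LLC_CM and 2.01, 2.58, 3.11 and 2.30 CPM in NCM. All LLC_CM values were higher, by 2.69-fold on average (1.43 ± 0.21, adjusted p = 6.7e-05). Its promoter carried 3 overlapping ISRE-type matches in 1 run of 22 bases at chr4:156200875-156200896, the longest such run among the members.
Isg15: GAAAAGGAAACCGAAACAGAAA
Usp18, the protease that removes ISG15 and dampens the type I receptor, had 159 summed counts in LLC_CM and 11 in NCM (3.70 ± 0.53, adjusted p = 5.4e-05), and its log2 fold change was 4.33 without NCM replicate 4. Herc6, the mouse ligase for ISG15, rose least, from 12.8 ± 1.86 to 22.1 ± 2.13 CPM (SD, n = 4; 0.79 ± 0.11, adjusted p = 4.4e-05).

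The OAS family comprises enzymes that make 2'-5' oligoadenylate on sensing double-stranded RNA, and related OASL proteins, and 5 of 5 rose. Oas2 (chromosome 5, 120730333 to 120749853) was the most abundant, at 26.7, 11.8, 12.8 and 9.68 CPM in LLC_CM and 1.13, 1.31, 0.600 and 1.32 CPM in NCM. LLC_CM replicate 1 stood above the other 3, and the groups were far apart with or without it, 13.9-fold on average (3.80 ± 0.38, adjusted p = 1.3e-05) and 3.37 on the log2 scale without it. Oasl2 read 8.98, 5.03, 3.53 and 4.27 CPM in LLC_CM and 0.375, 0.567, 0.318 and 0.536 CPM in NCM (3.58 ± 0.33, adjusted p = 8.6e-07), with replicate 1 again highest.

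Oas1a showed a similar fold at a low level, with 1.29, 1.26, 1.43 and 1.14 CPM in LLC_CM and 0.0682, 0.177, 0.106 and 0.0631 CPM in NCM (3.59 ± 0.35, adjusted p = 9.8e-07). Its transcript was 97.58% identical to that of Oas1g, so reads of these genes could be exchanged. Oas3 rose least of the family, with 1.45, 0.813, 0.951 and 1.11 CPM against 0.511, 0.425, 0.247 and 0.189 CPM (1.65 ± 0.34, adjusted p = 0.0012). Oasl1 had 68 summed counts in LLC_CM and 2 in NCM, a depth-scaled ratio of 31.4 (95% exact counting interval 8.37 to 265). The adjusted p of Oasl1 was 4.5e-05, both NCM counts lay in replicate 4, and such intervals cover counting error alone.

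The Mx genes encode dynamin-like GTPases that trap viral nucleoproteins, and both were near silent in NCM. Mx2 had 98 summed counts in LLC_CM and 12 in NCM (2.87 ± 0.51, adjusted p = 0.00035), and its log2 fold change was 3.62 without NCM replicate 4. Mx1 was too low to test, with 79 counts against 3 and a depth-scaled ratio of 24.3 (95% exact counting interval 8.03 to 120.0). The pair shared 94.78% identity over 920 aligned bases, 27.2% of the Mx1 transcript, so some reads could belong to either.

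**Figure D2:**
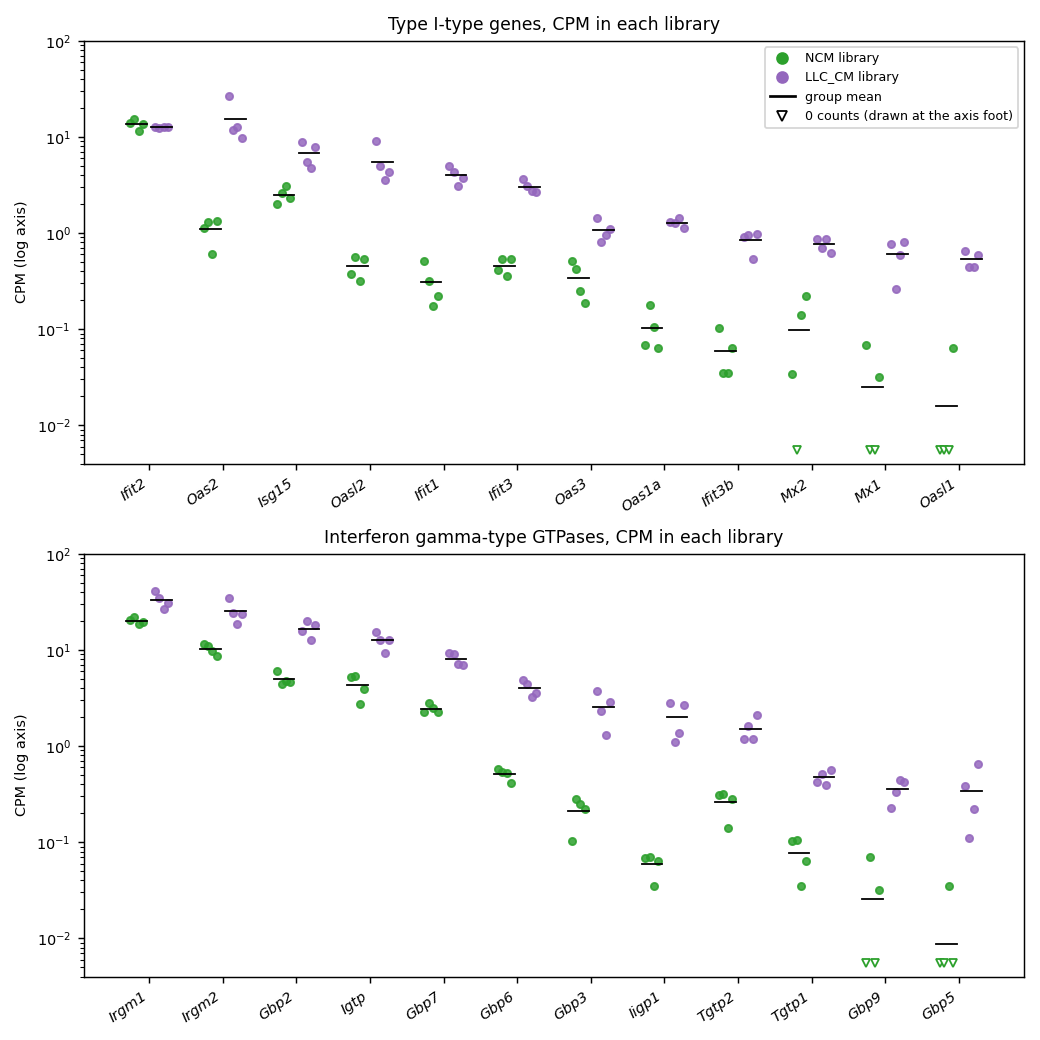
CPM (log axis) of the 12 type I-type genes (upper panel) and the 12 interferon gamma-type GTPases (lower panel) in each library, green for NCM and purple for LLC_CM, with a bar for each group mean and open triangles at the axis foot for 0 counts. Ifit2 is the only gene of the 24 whose groups overlap, and Oas2 and Oasl2 each have 1 LLC_CM library, replicate 1, above the other 3.

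The GBP family encodes large GTPases that coat pathogen vacuoles, and 4 of 4 tested members rose. Gbp2 (chromosome 3, 142620602 to 142638008), the most abundant, read 15.9, 19.8, 12.7 and 18.2 CPM in LLC_CM and 6.04, 4.43, 4.80 and 4.67 CPM in NCM. The groups were separate and the mean rose 3.34-fold, from 4.98 ± 0.719 to 16.7 ± 3.10 CPM (SD, n = 4; 1.74 ± 0.15, adjusted p = 2e-07). Gbp7 (142530338 to 142550083) moved by nearly the same amount, with 9.27, 9.06, 7.11 and 7.02 CPM in LLC_CM and 2.25, 2.80, 2.47 and 2.27 CPM in NCM (1.73 ± 0.15, adjusted p = 2.4e-07).

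Gbp3 (142560052 to 142573209) rose more, from a lower level, with 3.73, 2.33, 1.29 and 2.84 CPM against 0.102, 0.283, 0.247 and 0.221 CPM (3.55 ± 0.39, adjusted p = 3.2e-06). The row named Gbp6 (chromosome 5, 105215699 to 105293699) had the smallest adjusted p of the GTPases, with 4.83, 4.47, 3.22 and 3.58 CPM against 0.580, 0.531, 0.529 and 0.410 CPM (2.96 ± 0.22, adjusted p = 4.8e-08). That row covers more than one gene: GENCODE M21 gives its identifier to Gm43302 and places both Gbp10 and Gbp6 inside its span. Their exons share 1792 and 1726 bases with Gm43302, 41.6% and 40% of its exonic length in M21. The deposited row is longer, at 7842 bases, and the shares of that length were not computed. The rise therefore cannot be assigned to Gbp6 alone.

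The remaining members of the family were too low to test. Gbp9 had 46 summed counts in LLC_CM and 3 in NCM, a depth-scaled ratio of 14.2 (95% exact counting interval 4.55 to 71.2). The row named Gbp5 had 45 counts against 1, a ratio of 41.6 (7.09 to 1680). It carries the identifier that GENCODE M21 gives to Gbp2b and spans Gbp5, Gbp7 and Gbp3 as well, so these few counts cannot be assigned to Gbp5.

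The Gbp2 promoter (chr3:142620413-142620712) is shown because Gbp2 had the smallest adjusted p of the gamma-type GTPases with a sequence in the table. It held 1 ISRE-type match, at -59 to -50, and no GAS-type match.
Gbp2: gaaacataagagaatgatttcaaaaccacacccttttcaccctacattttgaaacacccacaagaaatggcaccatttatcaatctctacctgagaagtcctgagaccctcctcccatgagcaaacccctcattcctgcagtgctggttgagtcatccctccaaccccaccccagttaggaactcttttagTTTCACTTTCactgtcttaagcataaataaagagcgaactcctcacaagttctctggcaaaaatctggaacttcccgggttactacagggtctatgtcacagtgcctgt
Among the 9 gamma-type GTPases with a promoter sequence, 9 held an ISRE-type match and 6 a GAS-type match.

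The immunity-related GTPases, or IRG proteins, destroy the vacuoles of intracellular bacteria and protozoa, with Irgm proteins acting as regulators and the others as effectors. All 6 members rose. Iigp1 (chromosome 18, 60376029 to 60392627), an effector, had the highest fitted fold change of the tested members, with 2.83, 1.11, 1.37 and 2.66 CPM in LLC_CM and 0.0682, 0.0708, 0.0353 and 0.0631 CPM in NCM. Its NCM level rested on 7 summed counts, its fitted log2 fold change was 4.98 ± 0.48 (adjusted p = 8.3e-07) and its depth-scaled count ratio was 33.8 (95% exact counting interval 16.2 to 84.9).

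Irgm1 (chromosome 11, 48861968 to 48871683), a regulator, was the most abundant GTPase by CPM and moved least, with 40.9, 34.3, 26.9 and 30.6 CPM in LLC_CM and 20.7, 21.8, 18.7 and 19.5 CPM in NCM. Even so the groups did not overlap (0.72 ± 0.11, adjusted p = 0.00012). Irgm2 (58199618 to 58222779) read 34.8, 24.2, 18.5 and 23.4 CPM against 11.4, 10.9, 9.85 and 8.70 CPM (1.30 ± 0.17, adjusted p = 3.1e-05).

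Igtp (58199556 to 58207591), the third regulator and a neighbour of Irgm2, read 15.4, 12.8, 9.35 and 12.7 CPM against 5.18, 5.35, 2.72 and 3.91 CPM (1.55 ± 0.20, adjusted p = 2.2e-05). Igtp and Irgm2 share 162 exonic bases on the same strand, 8.01% of Igtp and 4.39% of Irgm2. The effector Tgtp2 (49057194 to 49064206) read 1.19, 1.63, 1.18 and 2.09 CPM against 0.307, 0.319, 0.141 and 0.284 CPM (2.51 ± 0.33, adjusted p = 1.9e-05). Its near copy Tgtp1, 99.75% identical, had 60 summed counts against 9 (2.56 ± 0.44, adjusted p = 0.0003), and these values cannot be kept apart with confidence.

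The promoters of 4 IRG genes held a GAS-type match followed 2 bases later by an ISRE-type match, an arrangement present in 5 of the 27025 genes of the promoter table (0.0185%). It is printed for its form alone: the members that share it rose, but so did the tested GTPases without it, among them Gbp2 and Irgm1. The spacing of 2 bases was taken from these genes after their sequences were seen, so the share describes them only, and Bst2 held the same pair of matches 3 bases apart. The stretches lie at chr11:58199511-58199531 (Igtp), chr11:58214902-58214922 (Irgm2), chr11:48992314-48992334 (Tgtp1) and chr11:49064273-49064293 (Tgtp2), each read on the strand of the gene, with matches in capitals.
Igtp: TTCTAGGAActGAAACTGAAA
Irgm2: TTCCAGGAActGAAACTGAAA
Tgtp1: TTCCAGGAAtcGAAACTGAAA
Tgtp2: TTCCAGGAAtcGAAACCGAAA
The fifth gene with this arrangement was Gm12185, which is not a member. These genes are related by descent and Tgtp1 and Tgtp2 are near copies, so the 4 stretches are not independent of each other. The Irgm1 promoter held another arrangement, 2 overlapping ISRE-type matches and no GAS-type match.

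The sensors of foreign nucleic acid and the RNA enzymes numbered 10, and 9 rose. Zbp1 (chromosome 2, 173206612 to 173218923), a sensor of left-handed nucleic acid that can start necroptosis, read 2.64, 3.07, 1.04 and 2.78 CPM in LLC_CM and 0.102, 0.0354, 0.0706 and 0.0946 CPM in NCM. Its NCM level rested on 9 summed counts (4.88 ± 0.46, adjusted p = 7.2e-07, with a depth-scaled count ratio of 30.3 and a 95% exact counting interval of 15.7 to 66.9). Ddx58, which encodes the RNA sensor RIG-I, was among the most abundant, with 92.0, 70.1, 71.7 and 76.3 CPM in LLC_CM and 41.0, 42.0, 34.2 and 41.3 CPM in NCM, a 1.96-fold rise (0.97 ± 0.09, adjusted p = 7.8e-07).

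Ifih1, which encodes the long-RNA sensor MDA5, read 12.8, 11.6, 12.4 and 8.90 CPM against 4.81, 3.68, 2.72 and 3.31 CPM (1.65 ± 0.17, adjusted p = 1.5e-06). Dhx58, which encodes the related LGP2, rose by 2.22 ± 0.30 (adjusted p = 5.3e-05), and by 1.83 without LLC_CM replicate 1. The fold thus differed among these related RNA sensors, and the differences between them were not tested.

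Ifi204, a DNA-binding protein of the p200 family, read 13.5, 14.7, 7.50 and 8.21 CPM in LLC_CM and 0.955, 1.10, 0.565 and 1.73 CPM in NCM (3.31 ± 0.31, adjusted p = 3.1e-06). Ifi203 of the same family read 6.31, 6.14, 4.42 and 5.26 CPM against 1.19, 0.708, 0.388 and 1.29 CPM (2.60 ± 0.26, adjusted p = 1.7e-06). Transcripts of both closely match relatives, Ifi211 at 96.92% for Ifi204 and Mndal at 96.06% for Ifi203, so the split of reads within the family is uncertain. Smaller rises were found for Eif2ak2, the kinase PKR that halts translation (0.59 ± 0.09, adjusted p = 0.00011), and for the helicase Helz2 (0.59 ± 0.11, adjusted p = 0.00052).

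Adar, the enzyme that edits adenosine in double-stranded RNA, was higher by 0.23 ± 0.08 (adjusted p = 0.027), and 1365 of its exonic bases, 16.8%, lie opposite Chrnb2 on the other strand, which this library type cannot separate. Its call was lost without LLC_CM replicate 1 (adjusted p = 0.12), without NCM replicate 2 (0.074) or without NCM replicate 4 (0.085). Znfx1, an RNA helicase, stood at 41.2 ± 2.78 CPM in LLC_CM and 38.3 ± 2.20 CPM in NCM (SD, n = 4; adjusted p = 0.25).

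The other antiviral and interferon-induced proteins numbered 11, of which 8 could be tested: 6 rose, 1 fell and 1 did not pass. Lgals3bp (chromosome 11, 118392751 to 118402092), a secreted galectin-binding glycoprotein, had the smallest adjusted p of the 50 tested members. It read 111, 82.7, 106 and 99.9 CPM in LLC_CM and 30.4, 37.7, 37.3 and 30.1 CPM in NCM, a 2.95-fold rise (1.56 ± 0.10, adjusted p = 2.1e-08). Ifi27, a mitochondrial protein and the most abundant member per length, read 122, 103, 95.8 and 90.1 CPM against 53.3, 53.7, 51.5 and 50.4 CPM (0.97 ± 0.08, adjusted p = 1.9e-07).

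Bst2, the tetherin that holds budding virions at the cell surface, read 8.82, 8.10, 5.79 and 7.02 CPM in LLC_CM and 2.32, 1.73, 2.37 and 1.61 CPM in NCM (1.89 ± 0.18, adjusted p = 6.5e-07). Rtp4, an interferon-induced regulator of antiviral responses, read 17, 10.6, 11.3 and 10.8 CPM against 3.96, 5.06, 4.31 and 4.41 CPM (1.49 ± 0.16, adjusted p = 2.6e-06). Replicate 1 was the highest LLC_CM library for both genes. Ifi44 rose by 1.62 ± 0.25 (adjusted p = 0.00011) and Ifi35 by 0.52 ± 0.08 (adjusted p = 0.00016). An antisense gene, Gm11626, covers 16.8% of the exonic length of Ifi35, and its reads cannot be told apart from those of Ifi35.

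Xaf1 (chromosome 11, 72301629 to 72313733), a partner of the apoptosis inhibitor XIAP that promotes cell death, was the only tested member that fell. It read 25.8, 21.2, 17.2 and 16.5 CPM in LLC_CM and 30.6, 34.8, 33.3 and 30.9 CPM in NCM. All LLC_CM values lay below all NCM values, 1.61-fold lower on average (log2 fold change -0.68 ± 0.12, adjusted p = 0.00041). LLC_CM replicate 1, the highest library of its group for most members, was also the highest for Xaf1 and so nearest to NCM, and without it the change was -0.83. The Xaf1 promoter (chr11:72301379-72301678) is shown as that of the member that went the other way, and it held neither motif.
Xaf1: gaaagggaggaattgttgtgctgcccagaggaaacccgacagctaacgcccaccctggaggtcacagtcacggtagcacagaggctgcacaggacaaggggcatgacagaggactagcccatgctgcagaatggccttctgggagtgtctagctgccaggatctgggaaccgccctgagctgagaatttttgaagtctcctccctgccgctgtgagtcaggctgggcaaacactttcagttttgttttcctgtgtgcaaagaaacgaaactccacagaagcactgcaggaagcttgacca
Samd9l, a translation-inhibiting antiviral protein, was among the most abundant members in both groups, at 119 ± 15.5 CPM in LLC_CM and 128 ± 9.69 CPM in NCM (SD, n = 4), with overlapping values (-0.11 ± 0.09, adjusted p = 0.35).

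The remaining 3 of this group were too low to test. Rsad2, which encodes viperin, an enzyme that makes a chain-terminating nucleotide, had 11 summed counts in LLC_CM and 0 in NCM. This is 3.39-fold above a floor of 3 counts over the NCM group, and the 95% exact counting interval of the ratio began at 2.32. Epsti1 had 8 counts against 0, 2.46-fold above the same floor, with an interval that began at 1.58, and 1 of the 4 LLC_CM libraries also had 0. Cmpk2, a mitochondrial nucleotide kinase whose gene lies beside Rsad2, had 38 counts against 6, a depth-scaled ratio of 5.85 (95% exact counting interval 2.45 to 16.9). Viperin RNA, often a prominent product of the type I response, was thus barely detectable at this depth in either group.

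The PARP proteins, which transfer ADP-ribose, and DTX3L, the ubiquitin ligase that pairs with PARP9, rose in 4 of 4 members by less than 2-fold. Parp12 read 65.7, 61.7, 62.0 and 59.2 CPM in LLC_CM and 45.3, 43.3, 38.7 and 42.2 CPM in NCM (0.55 ± 0.06, adjusted p = 6.6e-06). Parp14 rose by 0.94 ± 0.14 (adjusted p = 0.00016), Parp9 by 0.68 ± 0.10 (adjusted p = 3.8e-05) and Dtx3l by 0.58 ± 0.10 (adjusted p = 0.00026). Parp9 and Dtx3l share 458 exonic bases on opposite strands, 9.4% and 8% of their lengths, and these reads could not be separated.

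The TRIM ligases and proteins of PML nuclear bodies numbered 5, and 4 rose. Trim30a, a regulator of inflammatory signalling, read 19.7, 15.3, 12.7 and 14.1 CPM in LLC_CM and 7.50, 7.61, 7.10 and 7.50 CPM in NCM (1.06 ± 0.13, adjusted p = 8.6e-06). Sp100, a nuclear body scaffold, read 32.8, 27, 22.5 and 24.5 CPM against 14.7, 15.7, 13.3 and 15.2 CPM (0.86 ± 0.11, adjusted p = 1.8e-05). Pml, which organises the same bodies, did not pass the test, at 28.8 ± 2.44 against 27.3 ± 2.33 CPM (SD, n = 4; 0.08 ± 0.08, adjusted p = 0.51). Trim21, an intracellular antibody receptor, rose by 0.82 ± 0.14 (adjusted p = 0.00023). Trim25, the ligase that activates RIG-I, was higher by 0.19 ± 0.07 (adjusted p = 0.037), a call that was lost when any of 6 of the 8 libraries was left out, with an adjusted p of up to 0.15.

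The classes were compared by their summed level first. The summed CPM of the 12 type I-type genes was 71.74, 46.66, 44.46 and 46.21 in LLC_CM and 19.27, 21.42, 16.70 and 19.04 in NCM, of which Ifit2, which did not pass the test, held 11.6 to 15.5 CPM in NCM. For the 12 gamma-type GTPases the sums were 129.8, 110.7, 82.63 and 104.8 CPM against 46.65, 46.74, 39.61 and 40.10 CPM. All 56 members together summed to 1373, 1149, 1078 and 1109 CPM against 755.5, 778.5, 712.0 and 725.2 CPM, and no sum of either class or of all members overlapped between groups.

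By the test, 10 of 11 type I-type genes rose, with a median log2 fold change of 3.58, and 10 of 10 gamma-type GTPases rose, with a median of 2.12. The other members rose in 25 of 29 cases, with a median of 0.86. Among genes with a mean of at least 1 CPM over the 8 libraries, the medians were 3.14 (6 type I-type genes), 1.73 (8 GTPases) and 0.84 (28 others). Among members that passed on the NCM libraries alone, they were 2.07 (4 genes), 1.64 (6 genes) and 0.82 (27 genes). The difference between the classes was not tested, and it narrowed with the choice of genes.

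Both classes spanned a wide range of levels. Per length, the type I-type genes ran in NCM from 0.00604 RPKM (Oasl1) to 3.48 RPKM (Ifit2), and the gamma-type GTPases from 0.00151 RPKM (the row named Gbp5) to 3.47 RPKM (Irgm1). In LLC_CM the highest of each class were Isg15 at 8.90 RPKM and Irgm2 at 6.97 RPKM. The most abundant of the other members in LLC_CM were Ifi27, at 70.0 RPKM (35.6 RPKM in NCM), and Lgals3bp, at 35.1 RPKM (11.9 RPKM in NCM). In NCM, Samd9l came after Ifi27, at 23.6 RPKM.

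**Figure D3:**
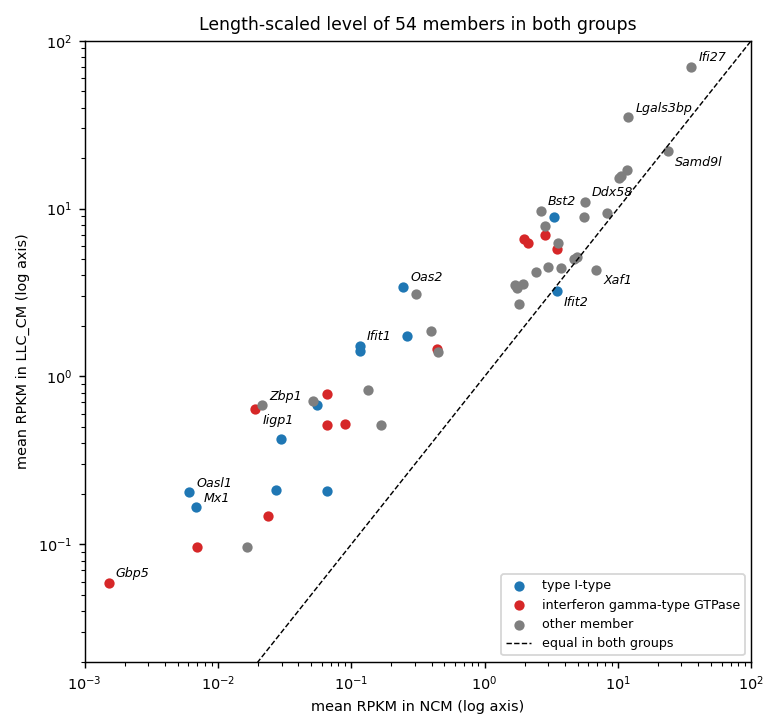
Mean RPKM in NCM (x, log axis) and in LLC_CM (y, log axis) of the 54 members with a count in both groups, coloured by class, with a dashed line where both groups are equal. Rsad2 and Epsti1, at 0 in NCM, are left out. Xaf1, Samd9l and Ifit2 lie below the line, and Iigp1 and Zbp1 are among the points farthest above it.

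LLC_CM replicate 1 had the highest value of its group for 39 of the 50 tested members, and replicate 3 the lowest for 26. The median deviation of the members from their group mean, on the log2 scale with 0.5 CPM added, was 0.25, -0.01, -0.20 and -0.07 in LLC_CM replicates 1 to 4. Over all tested genes the same medians lay between -0.01 and 0.01, which the scaling to a common centre makes likely and which does not show that other genes lacked such a shift. In NCM the members' medians were 0.03, 0.07, -0.06 and -0.02. Without LLC_CM replicate 1, 43 of the 50 members remained called higher, all but Adar and Trim25, and the median of the type I-type genes was 3.22.

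**Figure D4:**
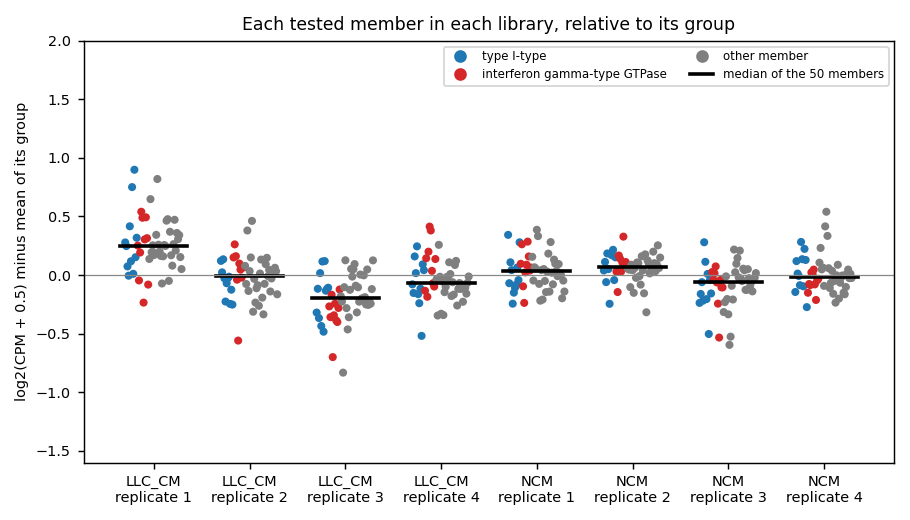
Deviation of each tested member from its group mean, as log2(CPM + 0.5), in each of the 8 libraries, coloured by class, with a bar for the median of the 50 members. LLC_CM replicate 1 sits highest with a median of 0.25 and LLC_CM replicate 3 lowest with -0.20, and the NCM medians stay between -0.06 and 0.07.

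Promoter sequences were found for 42 of the 56 members. An ISRE-type match lay in 23 of them (54.8%), against 3.99% of the 27025 genes with a sequence of the same length. By class it was present in 6 of 9 type I-type genes (66.7%), 9 of 9 gamma-type GTPases (100%) and 8 of 24 other members (33.3%). A GAS-type match lay in 12 of the 42 (28.6%), against 9.55% of all genes, and by class in 66.7% of the GTPases, 22.2% of the type I-type genes and 16.7% of the others. The classes' shares were not tested against each other, and 4 of the 6 GTPases with a GAS-type match are the related Igtp, Irgm2, Tgtp1 and Tgtp2. Of the members that rose, 21 of 33 held an ISRE-type match, and of the 4 that did not pass none did. A gene counts once if any of its starts holds a match. With the shorter core GAAANNGAA, which every ISRE-type match contains, the shares were 64.3% of members and 9.76% of all genes. It lay in 24 of the 33 members that rose and in 1 of the 4 that did not pass, Samd9l.

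Runs of overlapping ISRE-type matches were present in 36 of the 27025 genes (0.133%), of which 6 were members. These were Isg15, shown above, and Bst2, Gbp3, Irgm1, Oas1a and Trim21. Oas1a and Gbp3 are printed as examples from each class, at chr5:120907530-120907545 and chr3:142559999-142560014. The Oas1a run is read on the strand of the gene and the Gbp3 run on the opposite strand.
Oas1a: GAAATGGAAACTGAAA
Gbp3: GAAATAGAAACTGAAA
Both genes were among those with a log2 fold change above 3, at 3.59 for Oas1a and 3.55 for Gbp3, while Irgm1, with a run of the same length, changed by 0.72. Bst2 changed by 1.89, Isg15 by 1.43 and Trim21 by 0.82. Oasl1 and Oasl2, which rose by 4.68 and 3.58, held neither motif in their promoters.

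**Figure D5:**
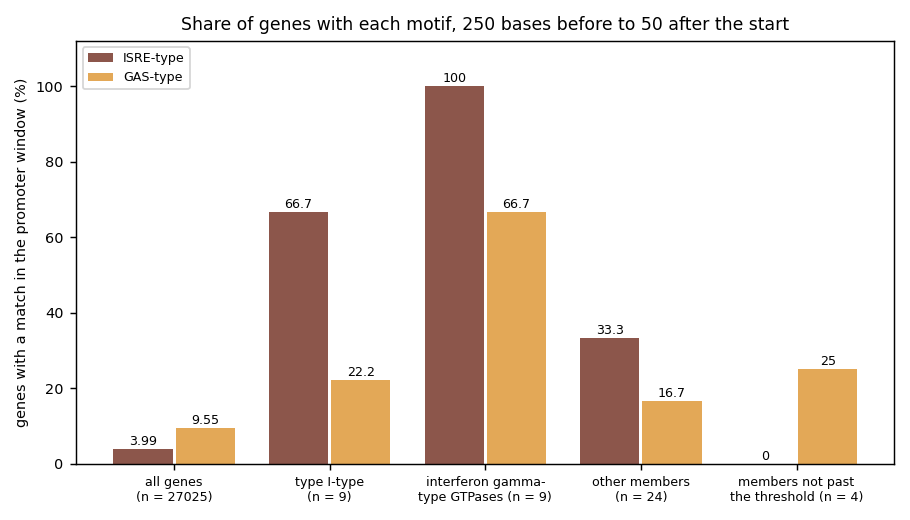
Percent of genes with an ISRE-type or GAS-type match between 250 bases before and 50 after a RefSeq start, for all 27025 genes and for the members with a sequence, by class and for the 4 members that did not pass the test. All 9 GTPases and 6 of 9 type I-type genes hold an ISRE-type match, against 3.99% of all genes.

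The wider interferon pathway was examined with 88 further genes, of which 64 could be tested: 42 were higher, 4 lower and 18 did not pass. Over all 14991 genes tested, 18.8% were called higher and 18.1% lower. The counts of the smaller lists below were not tested against these shares. No ligand was detected at a testable level. Of 10 interferon genes, 9 (Ifnb1, 4 Ifna genes, Ifnk, Ifng, Ifnl2 and Ifnl3) had 0 counts in all 8 libraries, and Ifne had 3 summed counts in LLC_CM and 6 in NCM. A count of 0 allows up to 0.110 CPM in the shallowest library, and RNA at day 7 says nothing of earlier times or of protein in the added medium.

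Of 6 receptor chains, 2 were higher, 1 was lower and 3 did not pass. The type I chain Ifnar1 stood at 61.9 ± 2.06 CPM in LLC_CM and 62.4 ± 2.24 CPM in NCM (adjusted p = 0.89), and its partner Ifnar2 rose by 0.20 ± 0.06 (adjusted p = 0.018), a call that was lost without LLC_CM replicate 4 or without NCM replicate 1, 2 or 4 (adjusted p up to 0.067). The interferon gamma chain Ifngr1 fell from 107 ± 5.91 to 72.0 ± 1.63 CPM (-0.57 ± 0.06, adjusted p = 1.2e-06). Ifnlr1, the chain for interferon lambda, rose by 1.43 ± 0.38 from 0.184 ± 0.0907 CPM (adjusted p = 0.0081).

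Of the kinases, Stat and Irf factors, 11 could be tested, and 7 were higher and 2 lower. Jak2, a kinase of the interferon gamma receptor and of many cytokine receptors, fell from 262 ± 10.5 to 92.9 ± 7.71 CPM (SD, n = 4; -1.49 ± 0.07, adjusted p = 1.6e-10). Tyk2, a kinase of the type I receptor, was the other lower gene (-0.32 ± 0.10, adjusted p = 0.016). Jak1, a kinase of both receptors, did not pass (0.09 ± 0.06, adjusted p = 0.24). Of the type I complex, Stat2 rose by 0.57 ± 0.09 (adjusted p = 0.00013) and Irf9 by 0.81 ± 0.14 (adjusted p = 0.00041). Higher levels were also called for Irf1, a transcription factor typical of interferon gamma (0.76 ± 0.06, adjusted p = 2e-07), and Irf7, which amplifies type I interferon production (1.45 ± 0.27, adjusted p = 0.00056).

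Among the sensing adaptors and kinases, 4 of 10 were higher and 1 lower. The helicase Ddx60 rose by 4.04 ± 0.34 (adjusted p = 2.3e-07), from 15 summed counts in NCM. It read at most 0.17 CPM in NCM, so it too entered the test only through LLC_CM. The RNA sensor Tlr3 rose by 1.13 ± 0.11 (adjusted p = 8.1e-07) and the adaptor Myd88 by 0.53 ± 0.08 (adjusted p = 5.1e-05). Of 6 negative regulators, 2 were higher: Socs3, an inhibitor induced by cytokines that use STAT3, by 1.76 ± 0.07 (adjusted p = 5.8e-11), and the phosphatase Ptpn2 by 0.20 ± 0.07 (adjusted p = 0.033). The Ptpn2 call was lost when any of 6 libraries, all but LLC_CM replicate 3 and NCM replicate 4, was left out, or with no low-count filter (adjusted p up to 0.10). The phosphatase Ptpn1 stood at 37.0 ± 4.14 against 41.0 ± 5.27 CPM (SD, n = 4; adjusted p = 0.27).

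Genes induced mainly by type I interferon that are not among the 56 were higher in 19 of 22 tested cases, with a median of 1.18. Ifitm3, which blocks virus entry, rose from 95.1 ± 9.83 to 294 ± 35 CPM (SD, n = 4; 1.63 ± 0.09, adjusted p = 4e-09). The enzymes that load ISG15 rose with their substrate, Uba7 by 1.37 ± 0.11 (adjusted p = 1e-07) and Ube2l6 by 1.37 ± 0.12 (adjusted p = 2.3e-07). Genes typical of interferon gamma were higher in 8 of 9 tested cases, with a median of 2.14. They included the immunoproteasome subunits Psmb8 (1.96 ± 0.09, adjusted p = 3.7e-10) and Psmb9 (2.24 ± 0.12, adjusted p = 1.4e-09), and Nlrc5, which activates MHC class I genes (2.14 ± 0.24, adjusted p = 3.5e-06). Of the 18 genes on the interferon gamma list, 9 were too low to test, and 3 of these had 0 counts in all 8 libraries. Some tested genes of both lists reached 0.33 CPM in fewer than 4 NCM libraries, so they entered only through LLC_CM.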

How the data were processed

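The authors deposited raw read counts per gene for 8 libraries, as whole numbers, in 1 table. Poly(A) libraries were made from 200 ng of RNA with 12 PCR cycles and a kit that does not mark strand, per the labels' protocols. CASAVA, STAR, featureCounts and mm10 were used, per the submitters' processing notes; their versions are not given in the sources used here. Columns were matched to samples by title. Of 43346 genes, 22913 had at least 1 read and 14991 were kept by filterByExpr in edgeR. The 4 libraries of a group differed from each other by more than sampling noise (chi-square per degree of freedom at least 7.07).

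Groups were compared with the two-sided quasi-likelihood F test of edgeR 4.0.16 under R 4.3.3 (TMM factors, robust estimation, group as the single term). Its p-values were adjusted by Benjamini and Hochberg's method over the genes tested and called under 0.05. Log2 fold changes are given as LLC_CM minus NCM, with a standard error equal to their size over the root of F. CPM and RPKM were computed from the counts, with TMM-scaled totals and the deposited gene lengths. The fit was tested on simulated counts. The analysis was repeated with other scaling (library size, upper quartile, DESeq2's size factors), other low-count filters (none, or 4 libraries at 1 CPM), other tools (limma-voom in limma 3.58.1, DESeq2 1.42.0), a block for replicate number, each library left out, and a threshold of 0.01.

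The members, gene lists and marker lists were chosen with earlier results of these data known. All 56 members are named. Values in each library are given for tested genes of both classes with at least 1 CPM in a group, for the 12 other members with the smallest adjusted p, and for any member that fell. From each pathway list up to 3 genes with the smallest adjusted p are named, with Stat2, Irf1, Irf7 and Irf9, and a gene that this rule names is not reported here. Ifnar1, Jak1, Tyk2 and the genes named only in the additional observations were chosen after their values were seen. Gene coordinates are those of the table (mm10), promoters are from RefSeq (GRCm38.p6), and exon overlaps and transcript identities (blastn 2.17.0, at least 200 aligned bases) used GENCODE M21.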

Additional observations from a re-analysis of the deposited data

Results flagged for a closer look

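In groups of 4 libraries, 177 sets of values were examined for 1 library far from the other 3 (its gap to the nearest, as a share of the whole range, above Dixon's 95% critical value), and 8 were found. Chance alone gives this in about 1 in 20 groups. In 3 of the 8 the library was LLC_CM replicate 1. Its summed CPM of the type I-type genes was 71.74 against 44.46 to 46.66 in the other LLC_CM libraries. Dhx58 stood at 10.4 CPM there against 4.31 to 5.08, and Rtp4 at 17 CPM against 10.6 to 11.3. Among the NCM libraries, Ddx58 was low in replicate 3 (34.2 CPM against 41.0 to 42.0), Parp9 in replicate 4 (24.3 CPM against 27.7 to 28.3) and Jak2 in replicate 2 (246 CPM against 266 to 268). Oasl1 at 0.0631 CPM in NCM replicate 4 and the row named Gbp5 at 0.0353 CPM in NCM replicate 3 were the only libraries of their group with a count, so these values rest on 2 reads and 1 read.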

How the results depend on the processing

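Over all alternatives, 844 values of the 50 tested members were recomputed. Of these 832 kept their direction and their side of the threshold, 12 lost their call and none reversed. The 12 belong to Adar (4 settings) and Trim25 (8 settings), and 48 members kept their call or lack of one in every setting in which they were tested. The count of type I-type genes called higher was 6, of 7 tested, when 4 libraries had to reach 1 CPM (10 of 11 in the reported fit), because fewer genes were tested. Only 2 of the other pathway genes were called lower at an adjusted p of 0.01 (4 at 0.05). The pathway genes Ifnar2 and Ptpn2 lost their call in several settings, with an adjusted p of up to 0.067 and 0.10. With the replicate number as a block, 45 members were called higher and 1 lower, as without it. The same-numbered libraries of both groups did not deviate together, with correlations of 0.11, -0.07, 0.27 and -0.08, so the numbers were not taken to pair the samples. The median of all tested genes moved little with scaling, from 0.004 to 0.026. Depth limits the 6 members that were not tested and the 13 that entered only through LLC_CM.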

Other observations

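Several interferon-induced genes outside the 56, chosen here after their values were seen, had few or no reads in NCM. Cxcl10, a chemokine that attracts T cells, had 32 summed counts in LLC_CM and 0 in NCM, and it was too low to test. Its level in LLC_CM was 9.85-fold above a floor of 3 counts over the NCM group. The 95% exact counting interval of the Cxcl10 ratio began at 7.56. Related chemokines were lower still, with 2 counts of Cxcl9 in LLC_CM and 0 counts of Cxcl11 in any library. Slfn2, a Schlafen gene, had 72 counts against 7, and Slfn8 of the same family rose from 0.741 ± 0.369 to 5.37 ± 3.64 CPM (SD, n = 4; log2 fold change 2.85 ± 0.48, edgeR adjusted p = 0.0007). Apol9a rose by 2.46 ± 0.37 (adjusted p = 8.8e-05) and Ifi27l2a, a small relative of Ifi27, by 3.00 ± 0.31 (adjusted p = 2.1e-06). Apol9a and Ifi27l2a did not reach 0.33 CPM in all NCM libraries, so both entered the test only through LLC_CM.

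Ifi44l went the other way from its neighbour Ifi44, with 31 summed counts in LLC_CM and 79 in NCM. It was not tested, its groups overlapped, and its depth-scaled count ratio was 0.362 (95% exact counting interval 0.231 to 0.556, counting error alone). Isg20, an exonuclease induced by interferon, and the inhibitor Socs1 did not pass the test, at 13.1 against 14.1 CPM and 1.81 against 1.85 CPM.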
